A study of Neurospora crassa with 14 samples.

Results

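The deletion of rlp1 (NCU09007) was compared with wild type in mycelium of the filamentous fungus Neurospora crassa, over all 9477 genes of the authors' deposited table for that comparison. The whole series lists 9552 gene identifiers, and the comparison rests on 4 of its 14 mRNA libraries, 2 of the rlp1 deletion (strains N8185 and N8186) and 2 of wild type (strains N3752 and N3753). Every gene of the table entered the counts. The genes given by name were chosen partly by their values, as set out with the processing. The series also holds 2 libraries each of deletions of sds3 (NCU01599), rlp2 (NCU02898) and eaf-3 (NCU06788), tested against the same wild type libraries. A further set holds strain N6279, which is his-3 and carries hph under the NCU05173 promoter and nat-1 under the NCU07152 promoter, with 5 ul or 0 ul of Trichostatin A (TSA), a histone deacetylase inhibitor. All mycelium was shaken for 16 h at 32 °C in 5 ml of Vogel's minimal medium with 1.5% sucrose, with histidine added for N6279, and libraries came from a stranded mRNA kit. The design text places these genes in the study of the RPD3L and RPD3S deacetylase complexes.

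In fungi, RPD3-type histone deacetylases work in large and small complexes, called RPD3L and RPD3S, that remove acetyl groups from histone tails and take part in keeping genes silent. Facultative heterochromatin is the kind of silencing that can be lifted, and in Neurospora it lies mostly near the chromosome ends and in scattered blocks of little expressed genes. Blue light, sensed by the White Collar complex, switches on the carotenoid pathway and the program that makes asexual spores, the conidia.

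The deposited tables give 1 average, 1 fold change and 1 p-value for each gene and no value for each library, so neither the spread between libraries nor their depth can be given. The sign ± gives a standard error worked back from the p-value, and changes are on the log2 scale, rlp1 deletion over wild type. A gene rose or fell where the deposited false discovery rate (FDR, the adjusted p of DESeq2) lay under 0.05. The 2 strains of a group are the only replicates named for it, and no label says whether the cultures were otherwise separate. Implied means are levels in the authors' normalized units, computed as if their average covered the 10 libraries of the deletion set with equal weight, which the files do not state. They compare 1 gene between groups, not genes with each other, and the deletions all share the wild type libraries. The gene lists were chosen with earlier results of these data known, and their membership was tidied after values were seen. A list's share of calls set beside that of all genes is therefore a description and not a test.

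The deleted gene itself was lower but not absent. In the authors' deposited table rlp1 changed by -1.03 ± 0.33 (adjusted p = 0.0111), from an implied mean of 148 in wild type to 72.6, or 49.0% of wild type (31.5% to 76.4%, normal 95% interval). Which part of the gene was deleted is not given in the sources used here, so reads from a remaining part were not tested as a source of this level. The direction of the comparison therefore rests on the labels of the 4 libraries. For comparison, rlp2 fell by -2.95 ± 0.32 in its own deletion. The values of sds3 and eaf-3 in their own deletions are not given here. Of the other genes deleted in the series, rlp2 rose without rlp1 by 1.19 ± 0.28 (adjusted p = 0.000412). Neither eaf-3 at 0.79 ± 0.32 (adjusted p = 0.0543) nor sds3 at -0.25 ± 0.19 passed the test. In the authors' deposited tables rlp1 was not called in any of the other 3 deletions, with 0.15 ± 0.32 without sds3, -0.02 ± 0.31 without rlp2 and -0.75 ± 0.32 without eaf-3.

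Genes of deacetylases moved in both directions. The catalytic subunit gene of the RPD3 complexes, hda-3, fell by -0.75 ± 0.29 to an implied 218 from 367 (adjusted p = 0.0463), while hda-1, the class II deacetylase gene, rose by 0.68 ± 0.16 (adjusted p = 0.000321). Among the sirtuins, the NAD-dependent deacetylases, nst-6 rose by 2.28 ± 0.39, nst-7 by 1.10 ± 0.41 and nst-1 by 0.73 ± 0.18 in the authors' deposited table. The other 6 of the 11 genes (hda-2, hda-4, nst-2, nst-3, nst-4 and nst-5) lay between -0.53 and 0.43 and did not pass. In all, 4 of 11 rose and 1 fell, where 14.6% of all tested genes rose and 8.61% fell.

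Over all genes 1299 rose and 768 fell of the 8925 that carry an FDR. Rises were larger than falls. The median change of the rises was 1.43 and that of the falls -0.82, while the median of all tested genes was 0.01. A change past 4 was reached by 128 rises and 6 falls, and past 8 by 26 rises and 0 falls (DESeq2's adjusted p, as deposited). The balance of rises and falls changed with the level of expression. With the tested genes in 5 equal bins by the authors' average, 11.5% rose and 1.06% fell in the lowest bin, 22.8% and 7.23% in the bin above it, and 10.8% and 13.3% in the highest. This average is the same in all 4 deletion tables. If it covers the deletion libraries, a gene's own change helps to set its bin, so bins and calls are not independent. The median implied standard error ran from 0.917 in the lowest bin to 0.236 in the highest, so small changes of rare transcripts could not be called. Of the 1113 tested genes with a symbol, which are those studied most, 134 rose and 117 fell, and of the 7812 without one 1165 rose and 651 fell.

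**Figure D1:**
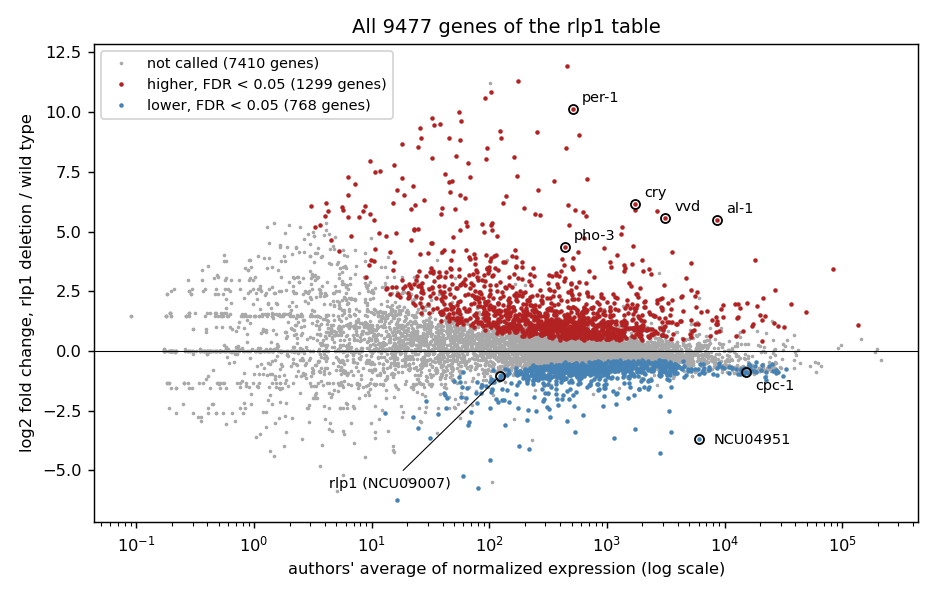
Each point is 1 of the 9477 genes, with the authors' average of normalized expression on a log axis and the log2 fold change of the rlp1 deletion over wild type on the other. Red marks the 1299 genes that rose, blue the 768 that fell and grey the 7410 not called, including the 552 without an FDR. The rises reach 11.94 and the falls with more than 20 units of average reach -5.73.

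Transcripts of several light response genes stood high without rlp1. The culture labels used here give no light condition, and its part in these values was not tested. The blue light receptor gene vvd, which tunes the response down, went from an implied mean of 233 in wild type to 10963, a 47.1-fold rise (5.56 ± 0.40, adjusted p = 1.35e-40). The cryptochrome gene cry went from 73.9 to 5297 (6.16 ± 0.49), and the photolyase gene phr, which repairs UV damage with light, rose by 2.24 ± 0.44. The receptor gene of the White Collar complex, wc-1, rose by 1.28 ± 0.18 and the clock gene frq by 1.85 ± 0.42 (adjusted p = 0.000164). The opsin gene nop-1 rose by 2.78 ± 0.73. Among the 11 listed genes not called, wc-2 was at -0.05 ± 0.26 and the clock gene frh at -0.38 ± 0.28. The phytochrome genes phy-1 and phy-2, of photoreceptors, were at 0.57 ± 0.28 and 0.08 ± 0.65 and were not called either. The casein kinase subunit gene ckb-1 fell by -0.41 ± 0.16 in the authors' deposited table. Of 18 genes for photoreceptors and the clock 6 rose (33.3%, against 14.6% of all tested genes) and 1 fell, with a median of 0.07.

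Genes for 4 of 5 listed steps of carotenoid synthesis rose. The gene al-3, which makes the precursor geranylgeranyl diphosphate, rose by 2.04 ± 0.25 in the authors' deposited table. The phytoene synthase gene al-2 followed with 3.68 ± 0.39 and the desaturase gene al-1 with 5.47 ± 0.42, a 44.2-fold rise to an implied mean of 22912. The torulene-cleaving oxygenase gene cao-2 rose by 2.72 ± 0.19 (adjusted p = 2.79e-42). The exception was ylo-1, whose product makes the end product neurosporaxanthin, which fell by -0.74 ± 0.23 (adjusted p = 0.00909) from 2487 to 1484. The list also holds cao-1, of a related oxygenase that cleaves stilbenes and is no step of this pathway, which rose by 1.22 ± 0.35. With it 5 of 6 listed genes rose (83.3%) and 1 fell (16.7%), with a median of 2.38. Of all tested genes 14.6% rose and 8.61% fell.

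Genes of conidia and conidiation rose with them. All 7 listed conidial and blue light induced genes rose, by a median of 3.89. The largest was bli-4 at 5.85 ± 0.41, from an implied 112 to 6467 (adjusted p = 6.52e-43). The spore genes con-8 (4.14 ± 0.56), con-10 (3.89 ± 0.96), con-6 (3.15 ± 0.65) and con-13 (4.14 ± 1.16) rose, as did eas, the gene of the hydrophobin that makes conidia water repellent (3.43 ± 0.91). The eas transcript reached an implied mean of 219784 from 20419. Their regulators rose less. The main activator gene of conidiation, fl, rose by 1.80 ± 0.38, acon-3, which acts in conidiophore formation, by 2.22 ± 0.68, and the conidial separation genes csp-1 and csp-2 by 2.29 ± 0.29 and 1.18 ± 0.27 in the authors' deposited table. Of 21 conidiation regulators 8 rose (38.1%) and 3 fell (14.3%), against 14.6% and 8.61% of all tested genes, the falls being vad-1 (-1.81 ± 0.44), vad-6 (-0.55 ± 0.21) and ve-1 (-0.47 ± 0.18), a velvet protein gene.

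The markers chosen for conidia in the mycelial cultures rose too, but they are no separate set of genes. Of 9 such markers 8 are in the table and all 8 rose, by 2.04 to 5.47. Their summed implied level was 23302 in wild type and 266211 without rlp1, and most of both sums came from eas. The lowest implied wild type mean among the markers was 2.80. All 8 markers are members of the conidial and carotenoid lists above, so their rise repeats that of those lists. More conidia in the cultures and more of these transcripts per cell cannot be told apart in bulk RNA.

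**Figure D2:**
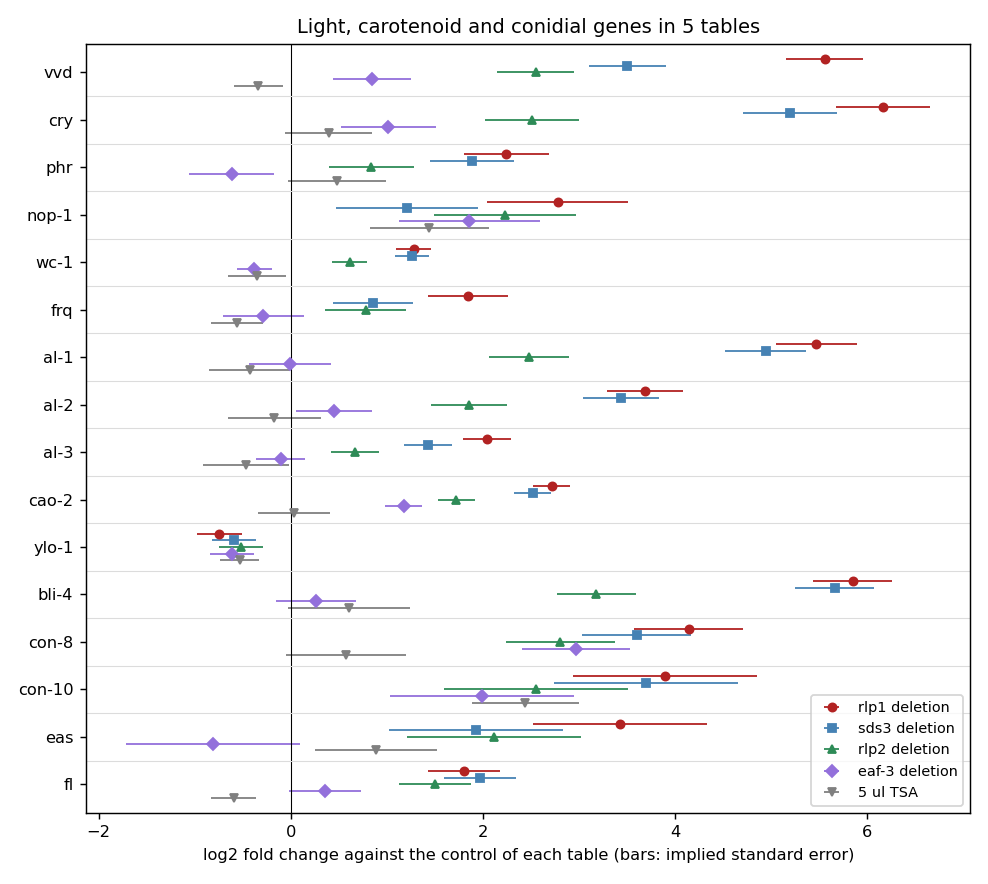
Points give the log2 fold change of 16 light, carotenoid and conidial genes in the 5 deposited tables, each against its own control, with bars of 1 implied standard error. The rlp1 values of vvd, cry, al-1 and bli-4 lie between 5.47 and 6.16, to the right of those without rlp2 and without eaf-3, while ylo-1 lies left of 0 in all 5 tables.

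How much of this was larger than in the other deletions was tested gene by gene as the difference between 2 deposited changes. The wild type libraries enter both, so this test is conservative. For al-1 the difference rlp1 minus rlp2 was 2.99 ± 0.60 (adjusted p = 0.000179), for vvd 3.01 ± 0.57 (adjusted p = 5.63e-05), for cry 3.65 ± 0.69 and for bli-4 2.67 ± 0.58. Against eaf-3 the differences were 5.47 ± 0.60 for al-1, 4.71 ± 0.57 for vvd and 5.59 ± 0.59 for bli-4, and al-1 itself was at -0.01 ± 0.42 without eaf-3 in the authors' deposited table. The sds3 deletion came closest for these genes. There al-1 rose by 4.94 ± 0.42, vvd by 3.50 ± 0.40, cry by 5.19 ± 0.49 and bli-4 by 5.66 ± 0.41 in the authors' deposited table. Only vvd of these 4 was higher without rlp1 than without sds3, by 2.05 ± 0.57 (adjusted p = 0.00754), while the differences were 0.53 ± 0.59 for al-1, 0.97 ± 0.69 for cry and 0.19 ± 0.58 for bli-4, none past the test. Of the 7 conidial and blue light induced genes 1 was higher without rlp1 than without rlp2, 2 than without eaf-3 and none than without sds3, where the list median was 3.60. Of the 6 genes of the carotenoid list 3 were higher without rlp1 than without rlp2, 4 than without eaf-3 and 1 than without sds3, the last being cao-1, and none was lower. Against rlp2 0.849% of all compared genes were higher and 0.141% lower, against eaf-3 5.99% and 7.00%, and against sds3 4.97% and 5.23%. With TSA al-1 and vvd were at -0.43 ± 0.42 and -0.34 ± 0.25, neither called, and of the spore genes con-10 rose (2.44 ± 0.56).

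Clock-controlled genes were mixed. Of 9 such genes 3 rose (33.3%, against 14.6% of all tested genes) and none fell. The rises were ccg-13 (3.80 ± 0.64), ccg-14 (1.90 ± 0.52) and ccg-9, the trehalose synthase gene (3.35 ± 0.42). The abundant ccg-6, ccg-15 and ccg-16, with implied wild type means of 42359, 41160.2 and 42359, were at -0.36 ± 0.24, -0.05 ± 0.18 and -0.17 ± 0.35 and were not called in the authors' deposited table. The pheromone precursor gene ccg-4 was at -5.49 ± 2.19 (adjusted p = 0.0517).

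Genes with an implied wild type mean near 0 made up most of the most extreme rises. For 68 of the 1299 rises (5.23% of them) the implied wild type mean was under 1, and for 169 it was under 10. Of the 60 rises past 6 on the log2 scale, 48 had an implied wild type mean under 1. That mean is computed from the average and the fold changes, so a larger rise lowers it by construction. The link between the size of a rise and a low wild type level is therefore not independent. Where the wild type is this close to 0, the size of the fitted change reflects the model's handling of near-zero values and sets no bound. Several of these genes stood side by side. Neighbours were counted as the protein-coding genes of the table that follow each other in the order of the reference annotation. In that order 504 of the 1299 risen genes (38.8%) lay in 207 runs of neighbours that all rose, and 167 of the 768 fallen genes (21.7%) in 79 runs that all fell. These shares grow with the number of calls and are not comparable with each other. The gene that followed a risen gene had itself risen in 24.4% of cases, against 14.5% after any gene, and the gene that followed a fallen gene had fallen in 12.1%, against 8.59%. No test of this was made. Neighbours can share reads where they overlap and the strand setting of the counting is not given, which was not tested here.

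The 3 longest runs held 6 genes each. On linkage group IV, NCU05176 to NCU05170 rose together in the authors' deposited table, and among them NCU05176 went from an implied mean of 7.92 to 1157 (7.19 ± 0.49, adjusted p = 1.96e-45). This run begins 20 genes from the chromosome end and holds NCU05173, whose promoter drives hph in the TSA strain and which went from 1.86 to 137. On linkage group VII, NCU05762 to NCU17269 rose, with NCU05762 going from 1.42 to 221 and NCU17269 from 3.75 to 104. On linkage group I, all 6 genes from NCU16305 to NCU08086 had implied wild type means of about 0.17 and reached 21.4 to 430.3 without rlp1. A run of 5 on linkage group II, NCU09775 to NCU09771, mixed nearly silent with expressed genes: NCU09774 went from 1.31 to 37 and NCU09772 from 195 to 989 (2.34 ± 0.31). A run of 5 on linkage group VII, NCU17185 to NCU09416, rose from wild type means between 0.173 and 3.25. The files name none of these genes beyond the identifier. The longest run of falls held 4 genes, NCU06065 to NCU06061 on linkage group VII, with changes from -1.03 to -0.65, and was looked up after the values were seen.

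Rises were more frequent close to the chromosome ends. Among the 10 outermost genes of each chromosome arm 38 of 132 tested genes rose (28.8%) and 11 fell (8.33%). The share of rises was 15.7% for genes 11 to 50 from the end, 20.3% for genes 51 to 100, 17.7% for genes 101 to 200 and 12.3% for genes farther in than 400. Falls ran from 6.59% to 9.33% over the same bins. The median change of the 10 outermost genes was 0.70 and that of the innermost bin -0.03, beside median averages of 204 and 559 units, so the outer genes were also expressed at lower levels. By linkage group the share of rises was highest on VI (17.8%) and IV (17.3%) and lay at 15.4% or less on the other 5.

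**Figure D3:**
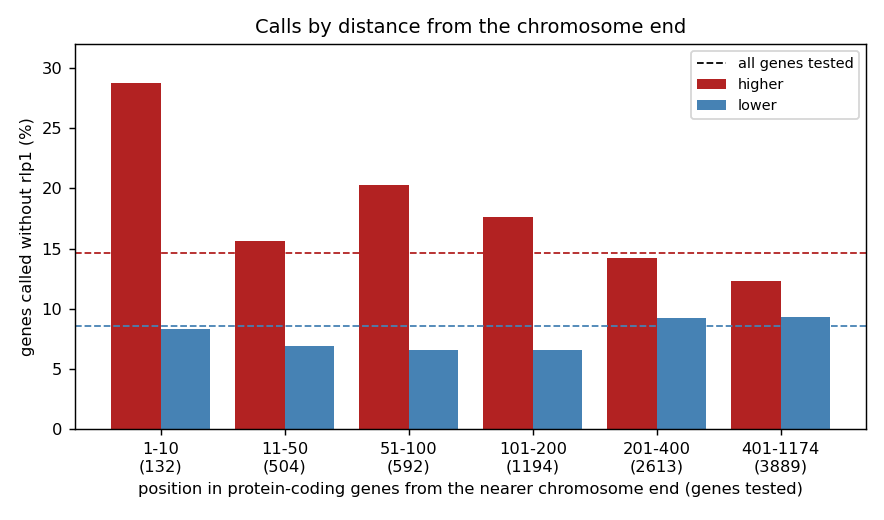
Bars give the percentage of tested genes that rose (red) or fell (blue) without rlp1 by position counted in genes from the nearer chromosome end, with the number of genes tested under each bin. The dashed lines are the shares over all tested genes, 14.6% and 8.61%, and the 10 outermost genes reach 28.8%.

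Genes of the sexual cycle, which shaken mycelium does not enter, gave a few large rises. The perithecium colour gene per-1 went from an implied mean of 1.86 in wild type to 2073 without rlp1 (10.12 ± 0.80, adjusted p = 3.81e-34), so its wild type level is close to 0 and the size sets no bound. The naphthol reductase gene tnr-1, of melanin synthesis, went from 14.4 to 735 (5.68 ± 0.38, adjusted p = 3.75e-47). Also per the authors' deposited table, spo11, whose product cuts DNA in meiosis, rose from 0.935 to 130.2, and app, the gene of an abundant perithecial protein, from 117 to 831 (2.83 ± 0.46). The pheromone receptor genes pre-1 and pre-2 rose by 1.58 ± 0.43 and 2.35 ± 0.83. Of 21 genes of mating and sexual development, 20 of them tested, 5 rose (25.0%, against 14.6% of all tested genes) and none fell, with a median of 0.17, and none of 13 genes of cell fusion was called (median -0.09).

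The sexual markers did not move as a set. Of 7 chosen markers of sexual tissue 2 rose, app and spo11, and the summed implied level went from 1853 to 2170. The perithecial gene poi-2 was at 0.83 ± 0.47 and the ascus development genes asd-1, asd-3 and asd-4 at -0.63 ± 0.50, -0.22 ± 0.57 and -0.46 ± 0.34, none past the test. The mating type gene matA-1 was at -5.18 ± 4.80, ccg-4, of the A pheromone, at -5.49 ± 2.19, and mfa-1, of the a pheromone, at 3.25 ± 1.53 in the authors' deposited table. These errors are far above the median of 0.295 over tested genes. The labels give no mating type for any strain, and its part in these 3 values was not tested.

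Nutrient genes were listed by element. Phosphate genes held large rises: pho-3, the repressible acid phosphatase gene, went from an implied 42.5 to 862 (4.34 ± 0.44, adjusted p = 1.58e-20), and the phosphate permease gene pho-5 from 24.8 to 389 (3.97 ± 0.50). The signalling gene nuc-2 rose by 0.98 ± 0.15. The alkaline phosphatase gene pho-2 fell by -1.01 ± 0.36, and the activator gene nuc-1 was at 0.05 ± 0.23, the cyclin gene preg at -0.33 ± 0.31 and the permease gene pho-4 at 0.26 ± 0.44, none past the test. So 3 of 7 rose (42.9%) and 1 fell (14.3%), against 14.6% and 8.61% of all tested genes. For pho-5 the difference from sds3, where it was at -0.51 ± 0.57, was 4.48 ± 0.76 (adjusted p = 8.5e-07), and for pho-2 that from eaf-3, where it rose by 3.17 ± 0.32, was -4.18 ± 0.48.

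Nitrate use rose at each of its steps. Per the authors' deposited table the nitrate transporter gene nit-10 rose by 1.26 ± 0.39, the nitrate reductase gene nit-3 by 1.18 ± 0.27 and the nitrite reductase gene nit-6 by 1.26 ± 0.39, to an implied mean of 17962 from 7516. The regulators nit-2 (-0.23 ± 0.17), nit-4 (0.39 ± 0.28) and nmr (-0.34 ± 0.21) did not pass. The NAD-dependent glutamate dehydrogenase gene gdh-1 rose by 0.94 ± 0.33, the glutamate synthase gene en(am)-2 fell by -1.34 ± 0.51 and the glutamine synthetase gene gln-2 rose by 0.61 ± 0.22. Of 11 nitrogen genes 5 rose (45.5%) and 1 fell (9.09%), against 14.6% and 8.61% of all tested genes. Without sds3 nit-3 and nit-10 moved the other way, at -1.44 ± 0.28 and -2.41 ± 0.40, and their differences from rlp1 were 2.63 ± 0.39 (adjusted p = 1.1e-08) and 3.67 ± 0.56 (adjusted p = 2.87e-08). Of the 18 sulfur genes only the activator gene cys-3 (-0.63 ± 0.19) and the thioredoxin reductase gene cys-9 (-0.53 ± 0.19) fell, and none rose. The falls were 11.1% of this list, near the 8.61% of all tested genes. The sulfate permease gene cys-14 was at 0.34 ± 0.47. None of the 7 quinate genes was called, with values from -0.21 to 0.91.

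Many genes of amino acid synthesis fell. Of 48 genes 14 fell (29.2%) and 1 rose, with a median of -0.60 and 44 of 48 below 0, where 8.61% of all tested genes fell. The activator gene cpc-1, the counterpart of yeast GCN4, fell by -0.86 ± 0.15 from an implied 20154 to 11085 (adjusted p = 1.4e-07). In arginine synthesis both subunit genes of carbamoyl phosphate synthetase fell, arg-2 by -1.52 ± 0.41 and arg-3 from an implied 7091 to 3548. So did arg-6 (-0.80 ± 0.18), arg-10 (-1.21 ± 0.33) and arg-5 (-0.87 ± 0.26) in the authors' deposited table. For branched chains leu-2 (-1.60 ± 0.37), ilv-2 (-1.19 ± 0.31) and ilv-6 (-1.34 ± 0.33) fell while ilv-5 rose (0.95 ± 0.28). Also lower were lys-3 (-1.21 ± 0.25), aro-1, of the 5-step aromatic enzyme (-1.20 ± 0.34), hom-1 (-0.82 ± 0.31), ser-7 (-0.92 ± 0.28) and the ornithine transaminase gene ota (-2.03 ± 0.60), whose enzyme also breaks down arginine. The median of this list was -0.59 without sds3, -0.47 without rlp2, -0.70 without eaf-3 and -0.07 with TSA, and the first 3 share the wild type libraries with rlp1. Of 7 purine and pyrimidine genes 1 fell, ad-7 (-0.99 ± 0.27).

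**Figure D4:**
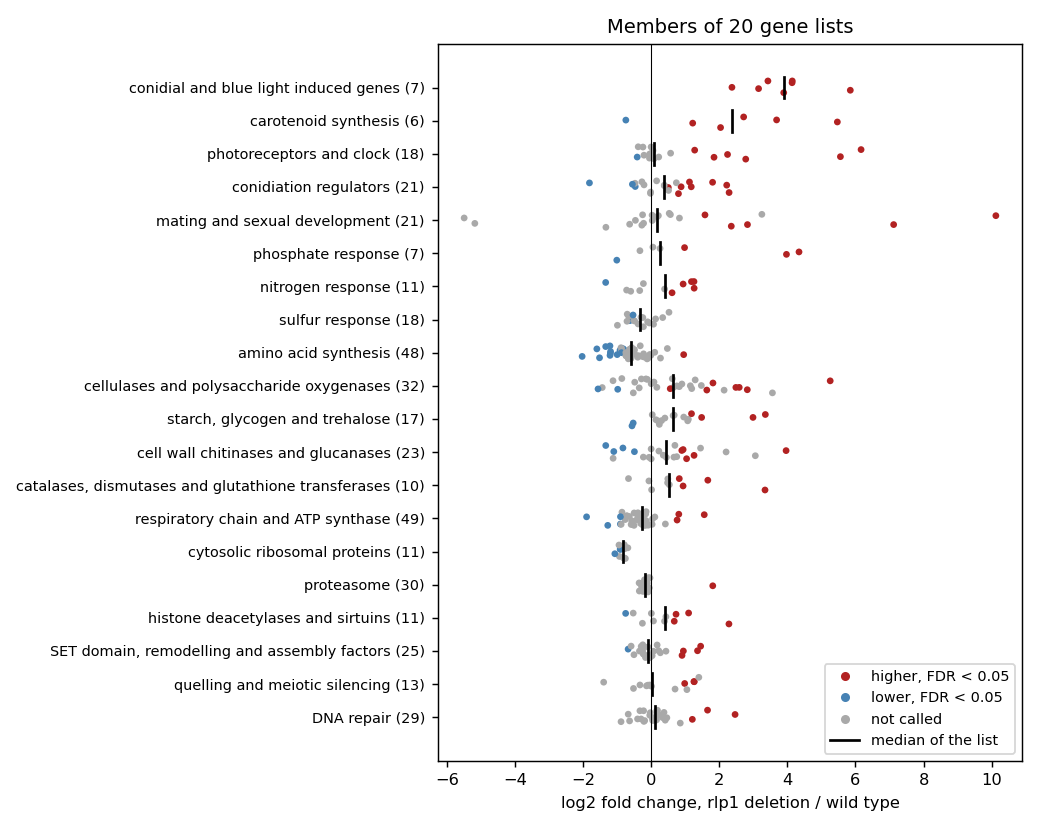
Each point is 1 gene of 20 of the 41 lists, placed by its log2 fold change without rlp1, with the number of genes in each list in brackets and the list median as a black bar. Conidial and blue light induced genes have a median of 3.89 and carotenoid genes of 2.38, while amino acid synthesis lies at -0.60 and cytosolic ribosomal proteins at -0.82.

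Among central carbon genes acu-6, of phosphoenolpyruvate carboxykinase, the first step of gluconeogenesis, rose by 3.05 ± 0.29, from an implied 913 to 7574 (adjusted p = 2.84e-23). The pyruvate dehydrogenase genes ace-2 (-0.66 ± 0.17) and ace-4 (-0.65 ± 0.19), the citrate synthase gene cit-1 (-0.63 ± 0.21) and acu-8, of acetate use (-0.98 ± 0.26), fell in the authors' deposited table. The isocitrate lyase gene acu-3 and the malate synthase gene acu-9, of the glyoxylate cycle, were at -0.31 ± 0.32 and 0.02 ± 0.29 and did not pass. In all 1 of 12 rose and 4 fell (33.3%, against 8.61% of all tested genes). Among storage sugars ccg-9 rose as given above, as did the starch family genes gh13-4 (2.99 ± 0.64), gh13-3 (1.18 ± 0.34) and gh31-1 (1.48 ± 0.35), while glycogen synthase (gsy-1, -0.53 ± 0.17) and gh31-2 (-0.56 ± 0.20) fell. That was 4 of 17 higher (23.5%) and 2 lower (11.8%), against 14.6% and 8.61% of all tested genes.

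Plant cell wall enzymes rose one by one rather than together, in a culture fed on sucrose. Of 32 genes for cellulases and polysaccharide oxygenases, 31 of them tested, 7 rose (22.6%, against 14.6% of all tested genes) and 2 fell (median 0.63). The cellobiose dehydrogenase family gene cdh-2 went from 3.99 to 153 (5.26 ± 0.72), the beta-glucosidase family genes gh1-1 and gh3-3 rose by 2.59 ± 0.48 and 2.49 ± 0.58 and the oxygenase gene gh61-7 by 2.82 ± 0.54. The oxygenase gene gh61-9 fell by -1.56 ± 0.29 and gh6-2, of a cellobiohydrolase family, by -0.98 ± 0.32 in the authors' deposited table. Of their regulators clr-1 rose (0.86 ± 0.23), while clr-2 (1.24 ± 0.62), xlr-1 (0.68 ± 0.48) and the repressor gene cre-1 (0.51 ± 0.21, adjusted p = 0.0537) did not pass. Among 9 xylan and other hemicellulose genes 1 rose, gh2-1 (2.86 ± 0.43).

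The fungus's own wall changed in single genes too. Of 23 genes for wall chitinases and glucanases 5 rose (21.7%) and 4 fell (17.4%), against 14.6% and 8.61% of all tested genes: the chitinase gene gh18-4 went from 19.1 to 298 (3.96 ± 0.41, adjusted p = 1.53e-19), and gh76-2 (0.90 ± 0.25), gh76-3 (1.26 ± 0.37), gh76-5 (1.04 ± 0.30) and gh18-6 (0.94 ± 0.32) rose. The glucanosyltransferase gene gel-5 (-1.33 ± 0.23), gh16-1 (-0.83 ± 0.23), gh18-3 (-1.10 ± 0.39) and gh76-7 (-0.49 ± 0.18) fell in the authors' deposited table. The chitin synthase gene chs-6 fell by -1.56 ± 0.43, while chs-1, chs-3, chs-4 and chs-5 lay between -0.31 and 0.03 and were not called. Among 11 anchored wall proteins acw-4 (1.42 ± 0.39) and acw-8 (1.15 ± 0.31) rose and acw-9 (-0.74 ± 0.17) and acw-12 (-1.01 ± 0.33) fell. For gh18-4 the difference from rlp2 was 2.47 ± 0.59 (adjusted p = 0.00558).

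Of the genes against reactive oxygen, the catalase-peroxidase gene cat-2 rose 10.1-fold, from 392 to 3982 (3.34 ± 0.31, adjusted p = 2.84e-24), and cat-1, the catalase gene of conidia, by 1.66 ± 0.55. The glutathione transferase genes gst-2 and gst-3 rose by 0.83 ± 0.24 and 0.94 ± 0.30. The mycelial catalase gene cat-3 (0.01 ± 0.45) and the dismutase genes sod-1 (-0.67 ± 0.30) and sod-2 (0.53 ± 0.35) did not pass. So 4 of 10 rose (40%, against 14.6% of all tested genes) and none fell. With TSA cat-2 also rose, by 1.14 ± 0.36 in the authors' deposited table. In the respiratory chain 3 of 49 genes rose (6.12%) and 4 fell (8.16%), against 14.6% and 8.61% of all tested genes. The side branches that pass electrons without pumping protons moved both ways: aod-3, an alternative oxidase gene, rose by 1.56 ± 0.40, and of the alternative NADH dehydrogenase genes nde-3 and nde-1 rose by 0.81 ± 0.22 and 0.76 ± 0.29 while ndi-1 and nde-2 fell (-1.28 ± 0.32 and -0.90 ± 0.33). The cytochrome c gene cyc-1 fell by -1.90 ± 0.60 and cya-5 by -0.90 ± 0.29. The subunits of complex I that carry nuo names were not called.

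Protein synthesis genes lay below 0. All 11 cytosolic ribosomal protein genes had negative values, from -1.07 for po to -0.68 for crp-2. Of them 3 fell (27.3%, against 8.61% of all tested genes). The list median was -0.82, and -1.49 without sds3, -0.66 without rlp2 and -1.04 without eaf-3, all against the same wild type libraries. Of 30 proteasome genes 29 lay between -0.35 and -0.04 and were not called. The one rise was rpn-4 (1.81 ± 0.25, adjusted p = 5.75e-11), whose namesake in budding yeast is a transcription factor for proteasome genes. Of 13 heat shock and chaperone genes 1 fell, hsp60, of the mitochondrial chaperonin (-0.92 ± 0.32).

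Of 25 genes for SET domain proteins, remodellers and assembly factors 4 rose (16.0%) and 1 fell (4.00%), where 14.6% and 8.61% of all tested genes did, so the share of rises was near that of all genes. The rises in the authors' deposited table were set-6 (1.45 ± 0.37), crf5-1 (1.36 ± 0.33), crf9-1 (0.91 ± 0.24) and set-9 (0.94 ± 0.26), and the fall was set-2, of the histone H3 lysine-36 methyltransferase (-0.68 ± 0.23). Among 11 genes of constitutive heterochromatin and DNA methylation the chromodomain gene cdp-2 fell (-0.62 ± 0.21), while the methyltransferase genes dim-5 (0.21 ± 0.41) and dim-2 (0.19 ± 0.24) and the heterochromatin protein 1 gene hpo (-0.21 ± 0.20) did not pass. The core histone genes hH3 (0.19 ± 0.23), hH4-1 (0.23 ± 0.24), hH2A (-0.03 ± 0.25) and hH2B (0.21 ± 0.24) were not called, the variant gene hH4v rose (0.77 ± 0.29) and hH2Az fell (-0.38 ± 0.14).

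Of 13 genes of RNA silencing 3 rose (23.1%) and of 29 of DNA repair 3 (10.3%), where 14.6% of all tested genes rose, and none fell. In quelling, the RNA interference of Neurospora, both Dicer genes rose, dcl-1 by 0.98 ± 0.25 and dcl-2 by 1.26 ± 0.25, with qip, of the exonuclease that works with Argonaute, by 1.26 ± 0.21, while the Argonaute gene qde-2 was at -0.14 ± 0.21. In repair, mus-18, of a UV endonuclease, rose by 2.46 ± 0.39, mus-53, of DNA ligase IV, by 1.65 ± 0.31 and mus-21, the ATM-type kinase gene, by 1.21 ± 0.20. The other 26 repair genes lay between -0.89 and 0.85. The polyketide synthase genes pks-1, pks-2 and pks-4 rose by 0.92 ± 0.29, 0.86 ± 0.28 and 0.78 ± 0.26 (3 of 6). Of 6 vegetative incompatibility genes het-6 (-1.59 ± 0.37) and pin-c (-1.21 ± 0.39) fell in the authors' deposited table (33.3%, against 8.61% of all tested genes). The other 4 were not called, and the list median was 0.07. Against eaf-3, where het-6 rose by 1.96 ± 0.33, the difference of het-6 was -3.55 ± 0.50.

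Genes for G proteins and cAMP moved both ways. Of 17 such genes 4 rose and 4 fell (23.5% each), against 14.6% and 8.61% of all tested genes. The receptor genes gpr-4 (1.74 ± 0.38) and gpr-1 (2.96 ± 0.96), the exchange factor gene ric8 (0.85 ± 0.18) and the protein kinase A gene pkac-2 (0.93 ± 0.24) rose. The receptor genes gpr-2 (-1.25 ± 0.42) and gpr-3 (-0.75 ± 0.27), the G alpha gene gna-1 (-0.43 ± 0.16) and cpc-2 (-0.86 ± 0.33), of a ribosome-bound beta propeller protein, fell. In the MAP kinase cascades nrc-1 (-0.91 ± 0.26) and mik-1 (-0.46 ± 0.17), both kinases at the head of a cascade, fell among 15 genes. The cytoskeleton list held 1 rise, kin-3 (1.33 ± 0.35), and 4 falls of 22 (18.2%), the tubulin genes tba-1 (-0.73 ± 0.22) and Bml (-0.55 ± 0.21) and ro-6 (-0.67 ± 0.21) and ro-12 (-1.04 ± 0.27), named for the ropy growth of dynein and dynactin mutants. Of 24 ion transport genes cax (0.93 ± 0.34) and ph7 (0.89 ± 0.34) rose and the calcium pump gene pmr-1 (-0.77 ± 0.18) fell. One of 23 autophagy and peroxisome genes fell, pex6 (-0.77 ± 0.28), and one of 5 genes of ergosterol and fatty acid synthesis, erg-4 (-0.91 ± 0.26).

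Of the 12 rises of smallest adjusted p with an average of at least 20, 6 belong to genes given by identifier only, and of the 12 such falls 11 do, where 87.5% of all tested genes have no symbol. In the authors' deposited table NCU05819 rose from 22.8 to 1298 (5.83 ± 0.36, adjusted p = 1.32e-54), NCU00787 from 29 to 1127 (5.28 ± 0.36), NCU01812 from 18.3 to 919 (5.65 ± 0.40) and NCU05766 from 13.3 to 915 (6.11 ± 0.45). Each of these 4 also rose with TSA, by 2.34 ± 0.48, 2.54 ± 0.45, 2.75 ± 0.53 and 2.95 ± 0.46, as did tnr-1 (2.13 ± 0.34) and NCU05176 (4.18 ± 0.39). The fall of smallest adjusted p was that of NCU04951, from 6087 to 477 (-3.67 ± 0.31, adjusted p = 1.35e-29). The highly expressed NCU00265 went from 6435 to 329 (-4.29 ± 0.58) and NCU00995 from 6153 to 590.2 (-3.38 ± 0.46). NCU10387 (-4.10 ± 0.53), NCU09045 (-3.97 ± 0.41), NCU09506 (-2.92 ± 0.34), NCU09031 (-2.90 ± 0.39), NCU11405 (-2.53 ± 0.34), NCU00798 (-2.23 ± 0.28), NCU09498 (-2.01 ± 0.29) and NCU05254 (-1.74 ± 0.22) fell as well. The only one of the 12 such falls with a symbol was plc-1, of a phospholipase C (-1.31 ± 0.19).

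Set against the other deletions, the rlp1 changes differed least often from those of rlp2. The test of the difference called 78 genes higher and 13 lower without rlp1 than without rlp2, 458 and 482 against sds3 and 553 and 646 against eaf-3. The counts of differing genes depend on how the shared wild type is treated, as given in the closing section. Against rlp2 per-1 differed by 8.41 ± 1.19 (adjusted p = 3.58e-09), as it was at 1.71 ± 0.88 without rlp2, not called. NCU09773 differed by 5.87 ± 0.81, NCU02324 by 8.52 ± 1.29 and col-22, named for colonial growth, by 2.37 ± 0.36. Lower without rlp1 than without rlp2 were NCU09045 (-3.35 ± 0.50), NCU09506 (-2.97 ± 0.46), NCU00995 (-3.56 ± 0.65), NCU04951 (-2.35 ± 0.44), NCU11405 (-2.40 ± 0.46), NCU09031 (-2.53 ± 0.49) and NCU08473 (-2.45 ± 0.53).

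Against sds3 the genes with the smallest adjusted p were higher without rlp1: NCU07736 fell without sds3 and was at -0.19 ± 0.30 without rlp1 (difference 5.04 ± 0.50), and col-22 differed by 3.58 ± 0.37. The perithecial gene app rose without rlp1 and fell without sds3 (-4.23 ± 0.64), a difference of 7.06 ± 0.79 (adjusted p = 5.93e-16), while without rlp2 it rose by 3.59 ± 0.46 in the authors' deposited table. NCU05964 rose by 2.55 ± 0.24 and differed by 2.84 ± 0.35. Lower without rlp1 than without sds3 were NCU04951 (-3.21 ± 0.44) and NCU00931 (-1.99 ± 0.27). Against eaf-3 the smallest adjusted p-values were those of genes that fell without rlp1 and rose without eaf-3, NCU09604 (-10.05 ± 0.76), NCU04947 (-6.88 ± 0.53), NCU09031 (-5.86 ± 0.48) and NCU04951 (-5.14 ± 0.44). NCU05766 was higher without rlp1 by 7.98 ± 0.84.

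**Figure D5:**
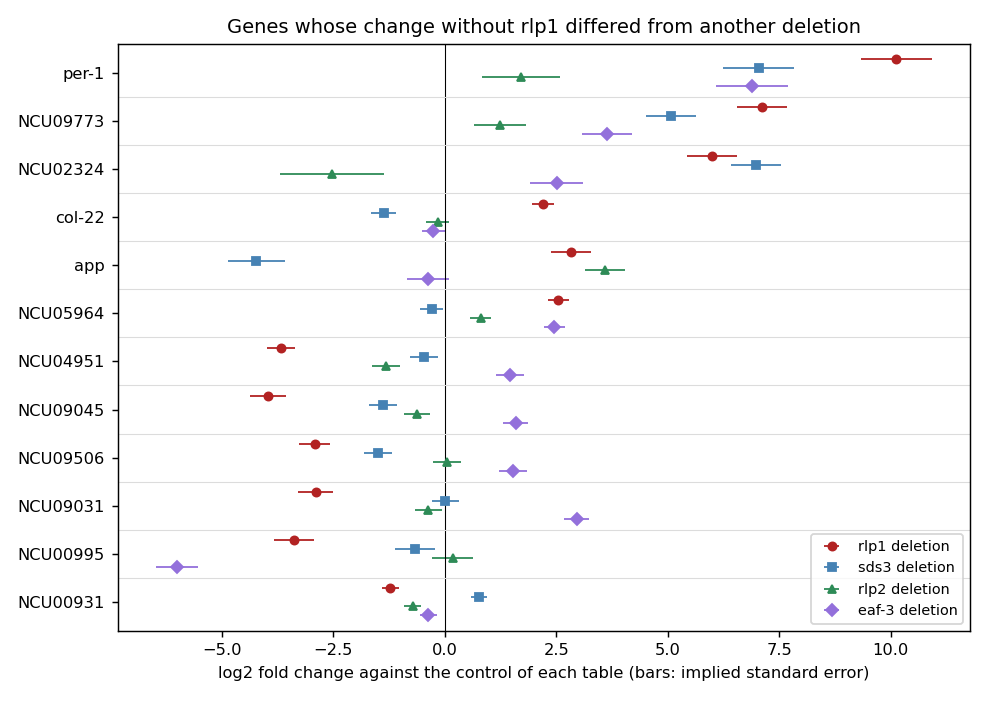
Points give the log2 fold change of 12 genes in the 4 deletion tables, each against the same wild type libraries, with bars of 1 implied standard error. The rlp1 value of per-1 is 10.12 against 1.71 without rlp2, app lies at 2.83 without rlp1 and at -4.23 without sds3, and NCU04951, NCU09045, NCU09506 and NCU09031 lie at or below -2.90 without rlp1 and above 0 without eaf-3.

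Trichostatin A was tested against its own control libraries, which the deletions do not share. Of the 1270 risen genes that have an FDR in the table for TSA, 181 rose (14.3%, and 40.4% of the 448 TSA rises compared), and 20 fell. Of the 768 fallen genes 63 fell with TSA (8.20%, and 19.9% of 316 TSA falls) and 22 rose. Among genes not called without rlp1 3.67% rose and 3.49% fell with TSA, and over all genes tested with TSA 5.15% rose and 3.62% fell. Both groups of the TSA set are the same strain, which differs from those of the rlp1 comparison. Strain and treatment therefore cannot be told apart when TSA changes are set against those without rlp1. Examples called the same way in both tables are NCU00265 (-4.75 ± 0.71 with TSA), gh61-9 (-2.58 ± 0.50), vad-1 (-1.67 ± 0.51), hda-1 (0.94 ± 0.29), gh18-4 (3.23 ± 0.57), mus-18 (1.48 ± 0.32), per-1 (3.40 ± 0.58), app (3.57 ± 0.81) and acu-6 (1.53 ± 0.46). NCU09498 fell without rlp1 and rose with TSA (1.65 ± 0.33).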

How the data were processed

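Groups were taken from the genotype and treatment labels. Only the authors' own comparison tables were used, 5 in all, with 0 columns of values per library. Per the submitters' processing notes the tools were DESeq2 1.24.0, RSEM 1.3.1 and STAR 2.7.3a. How they were set, on which build and annotation and with which strand option is not given in the sources used here. Columns of the tables hold, per the file headers, the average (a normalized expression signal), the log2 fold change, its p-value with an FDR, and a category score set by the authors. The average signal deposited is identical in all 4 deletion tables. Recomputing a Benjamini-Hochberg adjustment from the deposited p-value column gave the deposited FDR.

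Dividing the absolute log2 fold change by the normal quantile of its p-value gave the standard error. Genes were called at FDR under 0.05. To compare 2 deletions, the gap between their deposited changes was divided by the root of the summed squared errors, two-sided, adjusted over all genes compared. The calculations were tested on simulated data (Python 3.11.15, pandas 2.3.3, numpy 2.4.6, scipy 1.17.1). Of 9477 identifiers 9476 matched a reference gene table (assembly NC12), used for symbols and gene order only, and 1116 had a symbol. No sequence is printed. Values of near-identical family members and of overlapping neighbours are uncertain, since reads could be split among them.

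Named genes are those deleted in the series, up to 5 called members per list and direction, all members of lists of 12 or fewer, the 12 rises and 12 falls of smallest adjusted p with an average of at least 20, the 8 of smallest adjusted p per difference and direction, and the 5 longest runs. Not every gene that fits these rules is given in the text. Other names were added after their values were seen. The comparison and the 41 gene lists were chosen with earlier results of these data known, and list membership was tidied by role after values were seen. Alternatives were a stricter FDR, a minimum fold, the authors' category, another adjustment, a filter on low averages, centring, and removal of the shared wild type variance.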

Additional observations from a re-analysis of the deposited data

Results flagged for a closer look

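Some genes were called in opposite directions in 2 deletions. There were 68 of them between rlp1 and sds3, among the 9477 genes listed for each deletion. The 3 with the smallest adjusted p of the difference rose without rlp1 and fell without sds3, namely NCU07737 (rlp1 minus sds3 3.40 ± 0.35), col-22 (3.58 ± 0.37) and app (7.06 ± 0.79), in values computed from the authors' deposited tables. Between rlp1 and rlp2 there were 4 such genes. The first, NCU02898 (4.13 ± 0.43), is rlp2 itself, which is deleted in the strains it is compared with. The others given are NCU03323 (2.00 ± 0.30) and NCU07088 (3.78 ± 0.79). Between rlp1 and eaf-3 there were 105 such genes, led by NCU09604 (-10.05 ± 0.76), NCU04947 (-6.88 ± 0.53) and NCU09031 (-5.86 ± 0.48), which fell without rlp1 and rose without eaf-3. The wild type libraries are the same in these comparisons. How many genes were called in both deletions of a pair is not given here. The counts therefore do not show whether opposite calls were frequent, nor rank the deletions.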

How the results depend on the processing

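The excess of rises grew with stricter rules. With an FDR under 0.01 there were 1288 calls, 921 higher and 367 lower (71.5% higher). With an absolute log2 fold change over 1 added to the FDR of 0.05 there were 1171, 949 higher and 222 lower (81.0%). The authors' category gave 456, 408 higher and 48 lower (89.5%). These counts equal those of the calls with a log2 fold change over 2 or under -2. Adjustment over every gene with a p-value gave 1275 higher and 741 lower, an average of at least 10 gave 1290 and 784, and centring on the median 1293 and 779, with 62.2% to 63.2% higher against 62.8%. Of the 214 named genes that were called, 54 missed the FDR of 0.01, 69 the fold of 1 and 127 the authors' category. These alternatives could not change a direction. Removing the share of the common wild type from the variance raised the genes that differed from 940 to 2428 against sds3, from 91 to 350 against rlp2 and from 1199 to 2574 against eaf-3. No paired analysis was possible because values of single libraries were not analysed here, and leaving out each replicate was not run for the same reason. Depth per library is unknown, and no interval from counts could be given.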

Other observations

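Further runs of neighbours rose without rlp1. At the very end of linkage group IV the 4 genes NCU10039, NCU10038, NCU16906 and NCU10037 rose by 3.19 ± 0.43, 2.38 ± 0.34, 9.16 ± 1.47 and 8.51 ± 0.75 in the authors' deposited table. The first pair was expressed in wild type, while NCU16906 and NCU10037 had implied wild type means of 0.465 and 1.86. On linkage group V, 5 genes from the end, NCU07150 (5.75 ± 0.61), NCU07149 (4.23 ± 0.70), NCU07148 (8.48 ± 1.43) and NCU07147 (11.94 ± 1.46) rose together. Their implied means without rlp1 were 345, 60.9, 167 and 678, against 6.44, 3.24, 0.467 and 0.173 in wild type. On linkage group VI, 157 genes from the nearer end, NCU05151, NCU05149, NCU05148, NCU05147 and NCU05146 rose by 1.64 to 2.91 from wild type means of 18.9 to 159. These runs were looked up after their values were seen.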
